A study of Mus musculus with 24 samples.

Results

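Factor-independent mouse induced pluripotent stem (iPS) cells were compared with fast cycling mouse embryonic fibroblasts (MEF) taken on day 6 of reprogramming, gene by gene over all counted genes. The comparison uses 8 of the 24 libraries of the series, 4 libraries labelled iPS and 4 labelled fast MEF, and it asks what still separates the fast dividing induced cells from established pluripotent cells. Fast MEF had been held for 6 days in mouse embryonic stem cell medium, which contains serum and the cytokine LIF, with doxycycline to induce the Yamanaka factors (Oct4, Sox2, Klf4 and Myc). They were isolated by CFSE, a dye shared out at every division, after it had thinned out over 48 hours. iPS cells grew in that medium without doxycycline, received no treatment and were sorted as positive for an Oct4:GFP reporter, and their label also gives a fast cycle. The labels name no strain, cell line, clone or construct for either group, so whether the iPS libraries come from 1 clone or the MEF from several embryos is not given. All libraries held cytosolic RNA from 1000 sorted cells per well, and its polyadenylated part was copied with an oligo-dT primer and amplified. The 4 libraries of bulk MEF (grown in DMEM with 10% serum and not induced) and the 4 of slow cycling MEF (induced like the fast cells and gated with them) are quoted only as reference levels.

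The Yamanaka factors turn fibroblasts into pluripotent cells over weeks of culture, and only a small share of the starting cells completes the course. Early changes include faster division, loss of fibroblast genes and gain of epithelial genes, while the pluripotency network that sustains itself without the factors (Nanog, Esrrb and their partners) is switched on late. That network works together with enzymes that set DNA methylation, with Polycomb and other chromatin proteins, and with signals such as Nodal and Fgf4 that the cells make themselves.

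Total counts were 5051170 to 18648132 in the iPS libraries and 4937453 to 10248532 in the fast MEF libraries. Of 23283 genes in the table, 11882 had enough counts in these libraries to be tested. Between pairs of libraries of a group the median correlation of log2 levels was 0.911 in iPS and 0.898 in fast MEF, against 0.663 for pairs across the groups. Fast MEF replicate 3 stood apart from its group. Its chi-square per degree of freedom against the other fast MEF libraries was 90.2 to 92.2, where pairs of the other 3 gave 48.7 to 57.7. Pairs of iPS libraries gave 56.1 to 103.1, so values this large were not confined to that library. Nothing in the labels says that the replicates are separate cultures, and the p-values below therefore rest on the scatter of these libraries, which could be technical. In bulk RNA of sorted cells a lower level can mean fewer cells of a type or less RNA per cell, and these cannot be told apart.

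A gene was called when the adjusted p of edgeR's quasi-likelihood test was under 0.05. This gave 4568 called genes, 38.4% of those tested, with 2229 (18.8%) higher and 2339 (19.7%) lower in iPS. Of these, 1153 were higher and 1501 lower by 4-fold or more. Each list count below is to be set beside the 18.8% and 19.7% of all tested genes. Without fast MEF replicate 3 the test called 4903 genes, 2560 of them higher in iPS. Adding the other 16 libraries to the fit, so that all 6 groups share an estimate of the spread, left 1675 calls among 15813 tested genes, 681 higher (4.31%) and 994 lower (6.29%), and 159 of the 225 called genes described here kept their call there. Of 70 counts over gene lists, 41 moved by more than 1.5 times in this joint fit, most of which are given beside the lists below. The fit of the 16 MEF and iPS libraries, which leaves out the GMP libraries of the series (another cell type), called 4612 genes. Levels below are CPM (counts scaled by library size) with the scaling factors of the 16 MEF and iPS libraries, given as mean ± SD over the 4 libraries of a group or for each library from replicate 1 to 4. The iPS and fast MEF libraries did not overlap in CPM for 4827 tested genes (40.6%). That share is to be set beside each gene said below not to overlap. Log2 fold changes are iPS minus fast MEF, with the standard error after the ± sign, and their median over all tested genes was 0.003. They use scaling factors of the 8 libraries alone, against which the ratio of the printed levels is shifted towards iPS by 0.128 on the log2 scale.

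**Figure D1:**
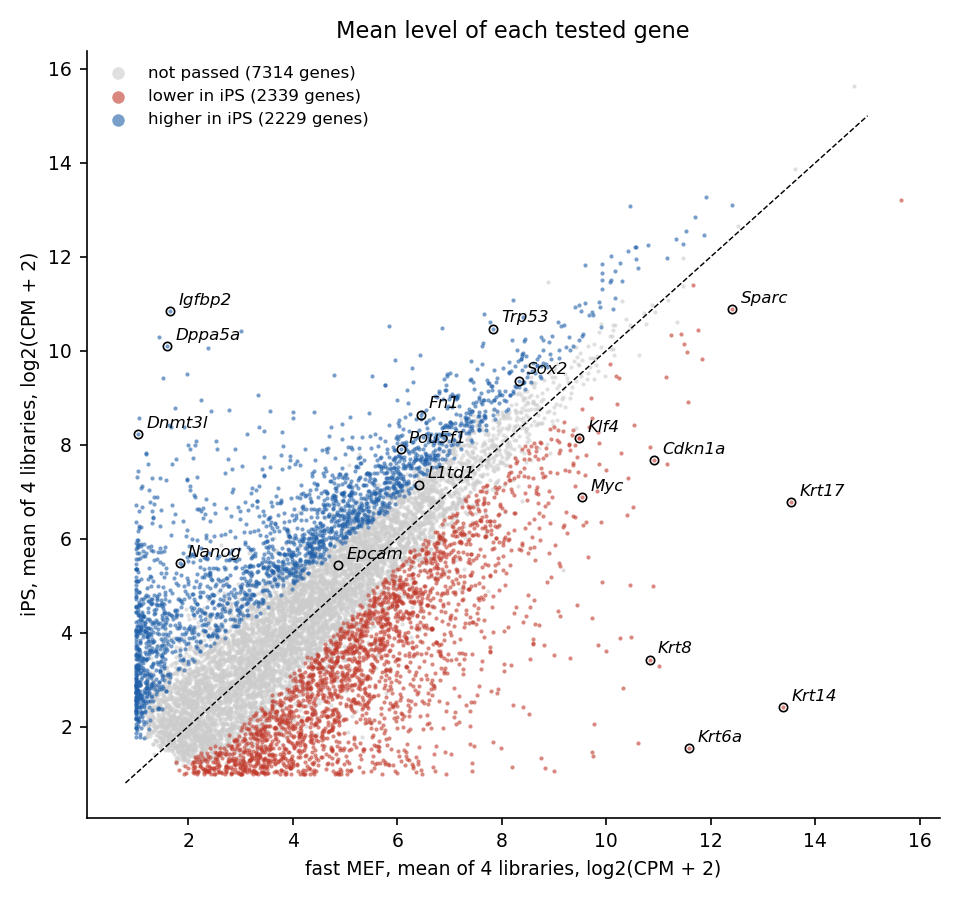
Mean level of each of the 11882 tested genes in fast MEF (x axis) and iPS (y axis), as log2 of CPM plus 2, over 4 libraries each. Blue points are genes higher and red points genes lower in iPS at an adjusted p under 0.05, grey points did not pass, and the dashed line marks equal levels. Igfbp2, Dppa5a and Dnmt3l lie far above the line, and Krt6a, Krt14 and Krt8 far below it.

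The genes of the 4 factors split by direction. Pou5f1, which encodes Oct4, stood at 21.5, 35.3, 128 and 75 CPM in the fast MEF libraries and at 164, 218, 303 and 266 CPM in iPS. The groups did not overlap, and the level was higher in iPS (log2 fold change 1.74 ± 0.50, adjusted p = 0.0208). Sox2, Oct4's partner on many enhancers, was at 214, 222, 449 and 394 CPM in fast MEF and 417, 724, 905 and 582 CPM in iPS, where the highest fast MEF library exceeded the lowest iPS library. Its difference (0.91 ± 0.32) just passed (adjusted p = 0.0457), and the call was lost without iPS replicate 2, 3 or 4 or without fast MEF replicate 1, 2 or 4 (adjusted p 0.0547 to 0.119).

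Myc, a transcription factor that drives growth and ribosome synthesis, ran the other way. It was at 668, 738, 769.7 and 802 CPM in fast MEF and 71.7, 155, 174 and 63.9 CPM in iPS, with no overlap (-2.81 ± 0.34, adjusted p = 0.000217). Klf4 was at 457, 545, 1036 and 823 CPM in fast MEF and 290.3, 277, 314 and 244 CPM in iPS and was also lower in iPS (-1.48 ± 0.27, adjusted p = 0.00194). Bulk MEF held 167 ± 86.6 CPM of Myc and 147 ± 19.9 CPM of Klf4 but only 0.844 ± 1.2 CPM of Pou5f1 and 1.61 ± 2.28 CPM of Sox2. Counts per gene do not tell reads of a doxycycline-driven copy from those of the cell's own gene. With all 24 libraries in the fit, the calls of Pou5f1, Sox2 and Klf4 were lost and that of Myc was kept.

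Most of the pluripotency network beyond these factors was higher in iPS. Of 43 tested genes on a list of 44 core and naive pluripotency factors, 37 were higher and 2 lower in iPS, with a median log2 fold change of 5.07, and the joint fit called 27 higher and none lower. Nanog, which stabilizes the pluripotent state, was at 40.9, 45.3, 43.9 and 41 CPM in iPS and 0.969, 1.29, 3.37 and 0.676 CPM in fast MEF. Every iPS library lay far above every fast MEF library (4.69 ± 0.56, adjusted p = 0.000188), and bulk MEF held 0.141 ± 0.174 CPM. Esrrb, an orphan nuclear receptor that can stand in for Nanog in sustaining self-renewal, averaged 419 ± 55.8 CPM in iPS and 3.42 ± 3.26 CPM in fast MEF (6.76 ± 0.75). Zfp42, also called Rex1, rose from 2.27 ± 1.46 to 209 ± 30.6 CPM (6.34 ± 0.50) and Utf1, a chromatin-bound protein of pluripotent cells, from 1.95 ± 1.0 to 722 ± 195 CPM (8.45 ± 0.47). Dppa5a, an RNA-binding protein of early embryo cells, had 0.194, 0, 3.17 and 0.761 CPM in fast MEF against 762, 1104, 1190 and 1339 CPM in iPS.

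Members that fast MEF hardly produced had the widest ratios. Dppa2 and Dppa4, paired chromatin proteins that keep developmental promoters accessible, averaged 375 ± 89 and 93.7 ± 25.4 CPM in iPS, with 4 reads of Dppa2 and 2 of Dppa4 in all fast MEF libraries together. Eras, a Ras-like protein that promotes growth of embryonic stem cells, had no read in fast MEF and 28.4 ± 7.39 CPM in iPS, at least 334-fold higher. Nr0b1, also known as Dax1, a nuclear receptor bound to Oct4, was at 49.4 ± 14.1 CPM in iPS against 1 read in fast MEF. The ratio of Nr0b1 was 1706-fold (95% counting interval 306 to 67422), the interval covering counting error only.

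A part of the network stood above bulk MEF levels on day 6, given as levels with no test of that contrast. Sall4, a zinc finger factor of the core network, was at 40.5, 45.6, 117 and 36.4 CPM in fast MEF against 1.82 ± 2.07 CPM in bulk MEF, although iPS held 858, 773, 923 and 994 CPM (3.76 ± 0.40, adjusted p = 0.000104). Replicate 3 was the highest fast MEF library for Sall4, as it was for Pou5f1 and Sox2. L1td1, an RNA-binding protein of pluripotent cells, was at 70.6, 77.7, 90.1 and 96.2 CPM in fast MEF and 99.8, 163, 134 and 164 CPM in iPS, which did not pass (adjusted p = 0.0695) although every iPS library was the higher. Stmn2, a tubulin-binding protein known from neurons, and Lin28b, which blocks maturation of let-7 microRNAs, were the 2 listed genes lower in iPS. Stmn2 went from 3434 ± 439 CPM in fast MEF to 1397 ± 256 CPM in iPS (-1.43 ± 0.17). The whole list summed to 3639 to 4856 CPM in fast MEF and 10840 to 14740 CPM in iPS, and Stmn2 made up most of the fast MEF sum. Lin28b was scarce in both (6.5 ± 2.46 and 1.6 ± 0.706 CPM), and its call was lost without iPS replicate 2 or fast MEF replicate 2 (adjusted p 0.0538 and 0.0698).

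The pluripotent cell markers as a set (Nanog, Esrrb, Zfp42, Dppa5a, Utf1, Sall4 and Pou5f1) summed to 2927 to 4105 CPM in the iPS libraries, 66.7 to 256 in fast MEF, 6.15 to 21.2 in slow MEF and 0.741 to 26.9 in bulk MEF. All 7 were called higher in iPS. On a list of 17 primed and early lineage genes, 10 had too few counts to be tested, and of the 7 tested 5 were higher in iPS and none was lower. Those unread in fast MEF passed the filter on low counts only through their iPS level, so the count is a description. Foxd3, a forkhead factor, had no read in fast MEF and 34.3 ± 10.0 CPM in iPS (at least 464-fold higher). Pou3f1, also called Oct6, averaged 47.8 ± 19.9 CPM in iPS and 0.242 ± 0.37 CPM in fast MEF, and Otx2, a homeobox factor of primed cells, 32 ± 11 CPM against 1 read. Fgf5, the classical marker of the primed epiblast, stayed near the limit of detection in both (1.59 ± 0.711 and 1.14 ± 1.18 CPM, adjusted p = 0.767).

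**Figure D2:**
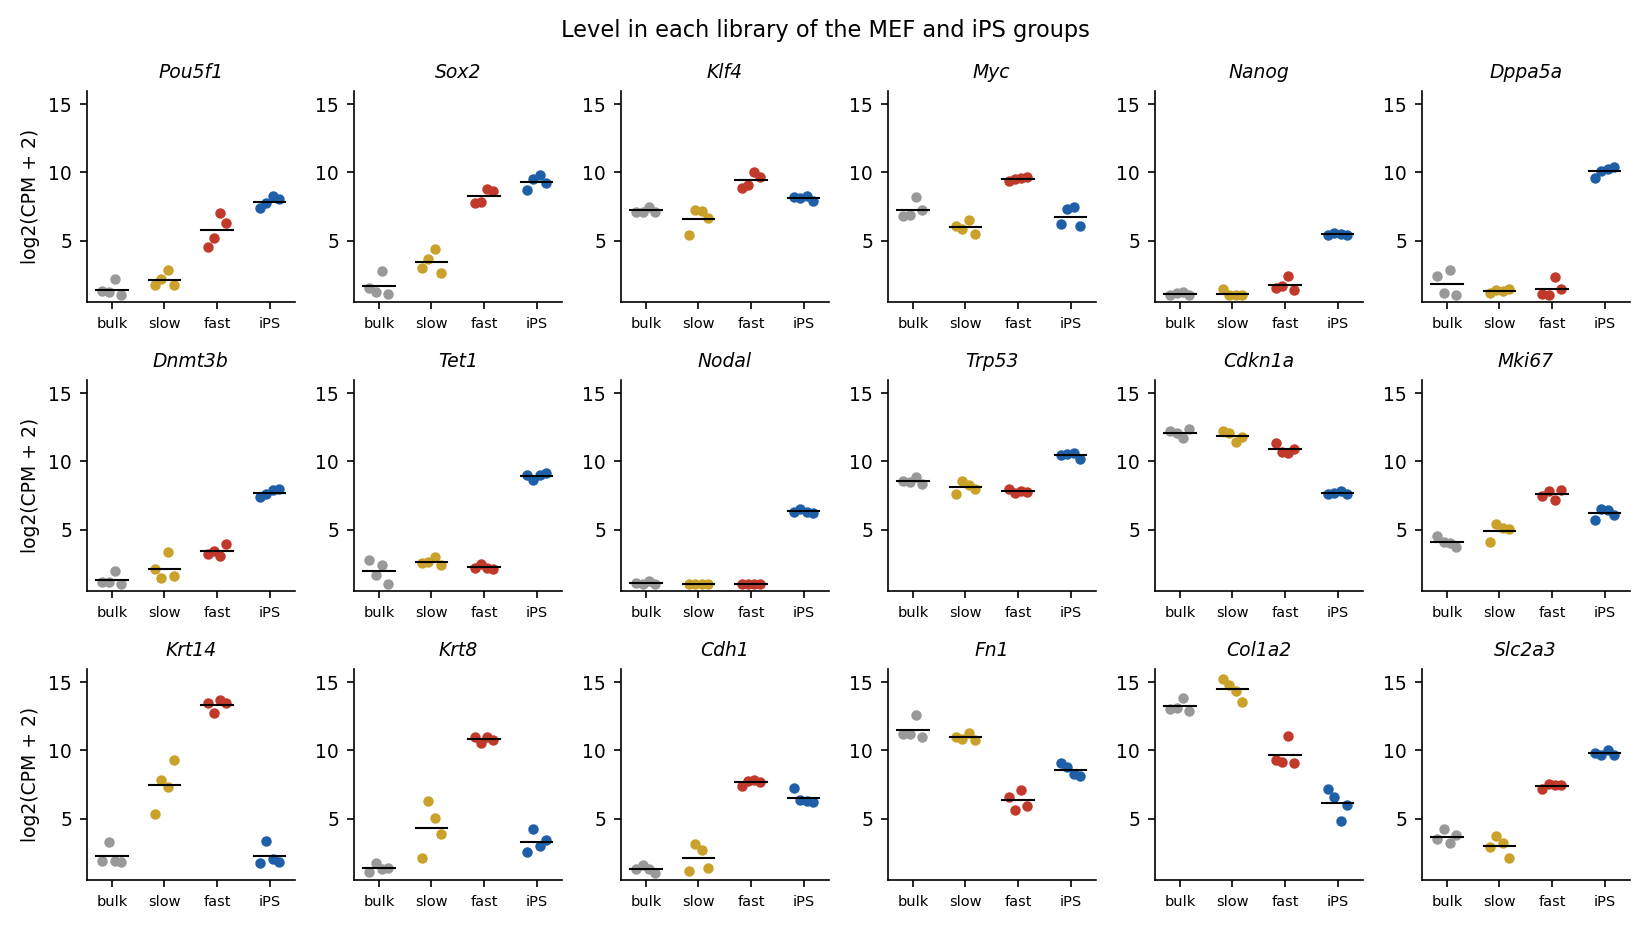
Level of 18 genes, as log2 of CPM plus 2, in each library of bulk MEF (grey), slow MEF (yellow), fast MEF (red) and iPS (blue), 4 libraries a group, with a line at the mean of the log values. Nanog, Dppa5a, Dnmt3b, Tet1 and Nodal are high in iPS alone, Pou5f1 and Sox2 are intermediate to high in fast MEF, and Krt14 and Krt8 peak in fast MEF.

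Nodal, its co-receptor and its antagonists were hardly read in fast MEF, while the wider list of such signals split. Of 23 tested genes on a list of 24 for Nodal, Bmp and Tgf-beta signalling, 10 were higher and 5 lower in iPS (6 and 1 in the joint fit), with a median log2 fold change of 1.33. The list summed to 268.6 to 488.2 CPM in the fast MEF libraries. Nodal, a ligand of the Tgf-beta family, had no read in any fast MEF library and was at 75.6, 90.6, 77.8 and 74.6 CPM in iPS, at least 1011-fold higher (adjusted p = 1.44e-05). Its co-receptor Tdgf1, also called Cripto, was at 132 ± 17.8 CPM in iPS against 3 reads in fast MEF, a ratio of 1639-fold (95% counting interval 560.0 to 7948). Gdf3, a related ligand, rose from 0.363 ± 0.324 to 191 ± 32 CPM (8.72 ± 0.57). Bmp7, a bone morphogenetic protein, had no read in fast MEF and 4.43, 4.66, 19.07 and 2.82 CPM in iPS, where replicate 3 was far above the others (at least 126-fold higher).

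The extracellular Nodal antagonists followed. Lefty1 was at 2.03, 1.1, 0 and 6.76 CPM in fast MEF and 117, 154, 194 and 161 CPM in iPS (5.78 ± 0.86), and Lefty2 at 1.92 ± 2.96 and 150.4 ± 10.6 CPM (6.10 ± 0.96). Id1 and Id2, inhibitors of differentiation that Bmp signals induce, were lower in iPS. Id1 fell from 34.7 ± 15.9 to 5.49 ± 2.69 CPM (-2.78 ± 0.52) and Id2 from 28.2 ± 9.43 to 4.16 ± 2.59 CPM (-2.88 ± 0.58).

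Among 30 tested Lif, Fgf and Wnt genes of 33 listed, 9 were higher and 5 lower in iPS, against 18.8% and 19.7% of all tested genes. These counts fell to 2 and 1 in the joint fit, and 3 were lower without iPS replicate 3 or without fast MEF replicate 1, 2 or 4. Fgf4, the ligand that drives Erk signalling in embryonic stem cells, was at 2.03, 4.14, 1.19 and 1.94 CPM in fast MEF and 136, 139, 107 and 97.9 CPM in iPS (5.53 ± 0.43, adjusted p = 1.58e-05). Dusp6, a phosphatase induced by Erk, was at 2.69 ± 1.13 and 18.4 ± 8.25 CPM (2.63 ± 0.55), while bulk MEF had 51.4 ± 16.5 CPM. Tcf7l1, which represses Wnt targets in stem cells, and Tcf7, its activating relative, were higher in iPS (3.62 ± 0.35 and 4.93 ± 0.61). Stat3, the effector of LIF, was at 184 ± 40.1 CPM in fast MEF against 178 ± 37.4 CPM in iPS and did not pass (adjusted p = 0.602). Dkk3, a secreted protein of the Dickkopf family, was lower in iPS (-2.78 ± 0.56), and so was the Wnt receptor Fzd1 (-4.81 ± 1.17; -3.68 without fast MEF replicate 4, at 64.2 CPM against 10.0 to 12.2 CPM in the others).

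Germline genes formed the group with the highest median. This list holds genes whose promoters are methylated in somatic cells and which pluripotent and germ cells express. Of 35 listed genes, 19 had enough counts to be tested, 16 of them were higher and 1 lower in iPS (12 and 0 in the joint fit), and the median log2 fold change was 8.53, or 6.34 with the 8 genes that had no read in fast MEF placed at their lower bound. Since a gene silent in fast MEF passed the filter on low counts only through its iPS level, the count describes these genes and supports nothing more. The summed level was 542.8 to 613.8 CPM in the iPS libraries and 10.6 to 23.8 CPM in fast MEF. Zfp42, one of the pluripotent cell markers above, is also on this list, and its level given there is a large part of the iPS sum.

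Promoters of the listed genes can carry a CACGTG E-box, the site of Mga and Max, and the core TCGCGC of the E2f6 site, both bound by a repressor complex known to keep germline genes silent. Of the 16 genes higher in iPS, 12 had a promoter in the RefSeq table (build GRCm38.p6, 250 bases before to 50 bases after the start). Searched on both strands, the E-box lay in 3 of these 12 (25.0%), against 12.1% of the 8537 tested genes with a promoter. The core lay in 3 of the 12 as well (25.0%), against 21.1%. Ddx4, Stag3 and Stk31 are shown because their promoters held both motifs, in capitals, each sequence running 5′ to 3′ on the gene's own strand. Stk31 has another listed start a little further on, whose window also held both.
Ddx4, chr13:112652261-112652560, minus strand: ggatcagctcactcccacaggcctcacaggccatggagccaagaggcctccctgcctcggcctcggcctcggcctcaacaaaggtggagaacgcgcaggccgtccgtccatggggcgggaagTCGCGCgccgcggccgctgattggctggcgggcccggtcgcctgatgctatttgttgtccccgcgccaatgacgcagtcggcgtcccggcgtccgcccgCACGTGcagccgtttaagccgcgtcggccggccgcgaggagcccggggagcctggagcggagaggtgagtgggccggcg
Stag3, chr5:138280259-138280558, plus strand: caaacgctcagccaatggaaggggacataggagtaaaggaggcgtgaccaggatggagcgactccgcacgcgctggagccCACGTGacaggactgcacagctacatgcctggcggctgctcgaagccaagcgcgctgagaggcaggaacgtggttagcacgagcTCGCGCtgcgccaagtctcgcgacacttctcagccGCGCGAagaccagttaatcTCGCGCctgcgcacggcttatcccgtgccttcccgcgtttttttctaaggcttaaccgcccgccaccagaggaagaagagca
Stk31, chr6:49395289-49395588, plus strand: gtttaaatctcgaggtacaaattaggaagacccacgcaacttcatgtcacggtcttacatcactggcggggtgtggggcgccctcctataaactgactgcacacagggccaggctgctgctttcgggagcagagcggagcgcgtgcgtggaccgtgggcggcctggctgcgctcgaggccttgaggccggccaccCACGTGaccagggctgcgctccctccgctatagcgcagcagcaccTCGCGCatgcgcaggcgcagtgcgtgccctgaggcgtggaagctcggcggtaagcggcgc
A match describes the letters and is no sign of binding. The files hold no methylation or binding data, and these genes and motifs were chosen after the values were seen.

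Ddx4, also called Vasa, an RNA helicase of germ cells, had no read in any fast MEF library and 6.37, 2.74, 4.41 and 9.79 CPM in iPS, at least 71-fold higher (adjusted p = 0.0014). Stk31, a kinase found in testis, likewise had no read in fast MEF and 9.38, 5.47, 6.38 and 7.06 CPM in iPS (at least 85.4-fold). Stag3, a cohesin subunit of meiosis, was at 0.291, 0.184, 2.78 and 0.676 CPM in fast MEF and 64.4, 23.1, 38.2 and 32.9 CPM in iPS (5.33 ± 0.85, adjusted p = 0.00105). All iPS libraries exceeded all fast MEF libraries for the 3 genes. Of all tested genes, 40.6% had groups without overlap, in one direction or the other.

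The widest gaps of the list were in Tuba3a, Rhox1, Rhox6 and Mageb16, none of which had a read in fast MEF. Tuba3a, a testis alpha-tubulin, was at 45.6 ± 24.2 CPM in iPS, at least 648-fold higher. Rhox1 and Rhox6 belong to an X-linked homeobox cluster. Rhox1 varied from 16.8 to 95.4 CPM among the iPS libraries, and Rhox6 averaged 30.1 ± 12.7 CPM. Smc1b, the meiotic cohesin ring subunit, reached 6.2 ± 2.46 CPM in iPS and was not read in fast MEF. Tdrd1, a Tudor protein of the piRNA pathway, was the 1 listed gene lower in iPS, at 0.388, 6.25, 3.57 and 4.99 CPM in fast MEF and 1.24, 0.203, 0.869 and 0.47 CPM in iPS. The groups overlapped, and its call (adjusted p = 0.0484) was lost in 7 of the 8 fits that left out a library (adjusted p 0.0596 to 0.129).

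Enzymes that write and erase DNA methylation differed member by member. Of 15 tested genes on a list of 16, 7 were higher and 2 lower in iPS (median 0.24), and the joint fit called 4 higher and 1 lower. Dnmt3l, a cofactor of the de novo methyltransferases, was at 319.9, 212, 400.2 and 257 CPM in iPS against 1 read in all fast MEF libraries, a ratio of 11869-fold (95% counting interval 2130 to 468841). The de novo enzymes were higher as well: Dnmt3b was at 7.27, 8.73, 6.35 and 13.4 CPM in fast MEF and 164, 192, 236 and 256 CPM in iPS (4.43 ± 0.33, adjusted p = 1.29e-05), and Dnmt3a rose from 140.2 ± 22.6 to 516 ± 165 CPM (1.75 ± 0.27). Dnmt1, which copies methylation at replication, stood at 242 ± 72.4 and 314 ± 79.5 CPM and did not pass (adjusted p = 0.514).

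The Tet dioxygenases, which oxidize methylcytosine, moved in different ways. Tet1 was at 2.52, 3.68, 2.58 and 2.28 CPM in fast MEF and 501, 397, 505 and 556 CPM in iPS (7.33 ± 0.28, adjusted p = 6.45e-07), and fast MEF were near the 2.31 ± 2.17 CPM of bulk MEF. Tet2 was at 98.8 ± 29.7 CPM in fast MEF against 74.6 ± 16.4 CPM in iPS with overlapping libraries (adjusted p = 0.167), well above the 4.22 ± 1.6 CPM of bulk MEF. Tet3 was lower in iPS, at 3.9, 17.3, 5.51 and 6.59 CPM against 54.2, 80.4, 89.7 and 71.6 CPM (-3.27 ± 0.50). Gadd45a, implicated in demethylation and induced by stress, was higher in iPS (2.62 ± 0.67), with fast MEF replicate 3 at 26.6 CPM and the other 3 at 4.46 to 5.70.

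Of 38 tested chromatin regulators, 15 were higher and 4 lower in iPS and 19 did not pass (median 0.68). Only 4 were higher and 2 lower in the joint fit. Jarid2, which guides Polycomb repressive complex 2, rose from 19.3 ± 4.58 to 412 ± 32.1 CPM (4.28 ± 0.25, adjusted p = 4.43e-06). Its partners Eed and Mtf2 were higher too (2.37 ± 0.37 and 1.99 ± 0.36). In Polycomb complex 1, Cbx7 rose from 8.92 ± 6.49 to 159 ± 21.7 CPM (4.04 ± 0.52) whereas Bmi1 fell from 10.6 ± 1.8 to 2.98 ± 1.32 CPM (-1.97 ± 0.51). Trim28, the corepressor that silences retroviruses in embryonic cells, was at 235, 316, 391 and 233 CPM in fast MEF and 1950, 2195, 2369 and 2094 CPM in iPS (2.74 ± 0.21). Among histone demethylases, Kdm3a, which removes a mark of heterochromatin, was higher (2.78 ± 0.26) and Kdm6b, which removes the Polycomb mark, was lower (-2.70 ± 0.39) in iPS. Smarca4 and Smarcc1, the ATPase and a scaffold of the BAF remodeller used in stem cells, did not pass (adjusted p = 0.897 and 0.976), while Smarcc2, the scaffold of the somatic form, was lower in iPS (-2.04 ± 0.42).

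Fast MEF had been gated for rapid division. Of 40 tested S phase and replication genes, 22 were higher and 1 lower in iPS (median 1.07) in the fit of the 8 libraries, but just 2 were higher and none lower in the joint fit. Ccne1, the cyclin that starts S phase, was at 3.97, 7.45, 2.58 and 18.4 CPM in fast MEF and 800.0, 486, 517 and 318 CPM in iPS (5.88 ± 0.64, adjusted p = 0.000121). Its paralogue Ccne2 was the 1 gene lower in iPS (12.5 ± 3.31 to 2.22 ± 1.01 CPM, -2.63 ± 0.52). Cdt1, which loads the replicative helicase, rose from 30.2 ± 8.01 to 222 ± 26.7 CPM (2.75 ± 0.26) and the helicase subunit Mcm7 from 290.3 ± 55.9 to 1204 ± 119.6 CPM (1.93 ± 0.19). The clamp loader subunit Rfc2 and the primase partner Pola2 were each higher by a log2 fold change of 1.85 (adjusted p = 0.0027 and 0.00557). Pcna, the sliding clamp, was at 194 ± 28 CPM in fast MEF against 202 ± 15.1 CPM in iPS (adjusted p = 0.812), with bulk MEF at 42.4 ± 13.1 CPM.

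For G2 and mitosis, 13 of 30 tested genes were higher and 3 lower in iPS (median 0.68). The joint fit called none of them higher and 1 lower. Cyclin genes Ccnb2 and Ccnf, the kinase Cdk1 and the centromere histone Cenpa were higher (2.27 ± 0.33, 2.12 ± 0.21, 1.67 ± 0.28 and 2.28 ± 0.33), and so was Kif20a, a kinesin of cytokinesis (1.44 ± 0.29). The proliferation marker Mki67 was lower in iPS, at 49.9, 89, 87.2 and 66.2 CPM against 176, 222, 145 and 234 CPM in fast MEF with no overlap (-1.53 ± 0.27, adjusted p = 0.00159). The phosphatase Cdc25b (-2.80 ± 0.40) and the kinesin Cenpe (-1.14 ± 0.28) were lower as well. Plk1, a mitotic kinase, did not pass (adjusted p = 0.839).

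Brakes of the cycle and G1 cyclins separated the groups further. Of 12 tested of 15 listed, 6 were lower and 3 higher in iPS (median -1.71), with 3 each way in the joint fit. Cdkn1a, the p21 inhibitor that p53 induces, was at 2555, 1615, 1604 and 1970 CPM in fast MEF and 192, 200.2, 229.8 and 189 CPM in iPS (-3.38 ± 0.20, adjusted p = 4.43e-06), against 4462 ± 860.0 CPM in bulk MEF. Cyclins D1 and D2, targets of growth factor signals, fell (Ccnd1 -2.26 ± 0.24, Ccnd2 -2.88 ± 0.36), and so did the kinase Cdk6 (-2.50 ± 0.69) and the retinoblastoma gene Rb1 (-2.69 ± 0.45). Cyclin D3 and its kinase Cdk4 were higher (Ccnd3 1.74 ± 0.18, Cdk4 1.32 ± 0.27). Cdkn1c, the imprinted p57 inhibitor, was at 17.2, 15.6, 13.1 and 28.8 CPM in iPS and 1.55, 2.39, 0.397 and 1.27 CPM in fast MEF (3.57 ± 0.60), both below the 38.4 ± 16.1 CPM of bulk MEF.

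Trp53, which encodes p53, was at 252, 209.5, 228 and 219.9 CPM in fast MEF and 1450, 1524, 1535 and 1150 CPM in iPS (2.51 ± 0.16, adjusted p = 7.49e-06), opposite to its target Cdkn1a. The 24 tested p53 targets of 25 listed split, with 8 higher and 6 lower in iPS (2 each way in the joint fit) and a median of 0.12. Their shares were 33.3% and 25.0%, against 18.8% and 19.7% of all tested genes. The widest gap was that of Gdf15, a stress cytokine, with no read in fast MEF and 25, 15.2, 1.27 and 2.54 CPM in iPS (at least 99.4-fold higher), where replicates 1 and 2 held most of the reads. Also higher were Sesn2, a stress-induced inhibitor of mTOR signalling (69.2 ± 39.8 to 386 ± 58.7 CPM, 2.35 ± 0.38), its relative Sesn1 (2.12 ± 0.54), the death gene Bbc3 (2.57 ± 0.48) and the kinase Plk3 (3.92 ± 0.53; 3.30 without iPS replicate 4, which was its highest library). Lower were Perp, a membrane protein of stratified epithelia (203 ± 28.6 to 26 ± 5.52 CPM, -3.09 ± 0.25), and Rrm2b, a ribonucleotide reductase subunit (-2.63 ± 0.71).

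Most metabolic genes that passed the test were higher in iPS. Glycolysis and glucose uptake had 14 of 23 tested genes higher and 1 lower (median 0.89), and 4 higher and none lower in the joint fit. The glucose transporters Slc2a1 and Slc2a3 rose, Slc2a3 from 145, 180.5, 175 and 175 CPM in fast MEF to 899, 806, 1036 and 793 CPM in iPS (2.26 ± 0.17, adjusted p = 1.44e-05) and Slc2a1 from 972 ± 297 to 3686 ± 596 CPM (1.79 ± 0.22). Slc2a3 was at 11.4 ± 4.12 CPM in bulk MEF. Pkm2, pyruvate kinase, was at 3303 ± 459 and 7391 ± 776 CPM (1.03 ± 0.14), and Ldhb, a lactate dehydrogenase subunit, at 13.5 ± 15.4 and 215 ± 54.4 CPM (3.89 ± 0.79). Pfkl, a phosphofructokinase, and Pdk1, a kinase that inhibits pyruvate dehydrogenase, were higher as well (1.85 ± 0.28 and 2.69 ± 0.56). The lactate transporter Slc16a1 was the 1 lower (-1.30 ± 0.30), while its relative Slc16a3 was among the 14 higher.

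Oxidative phosphorylation had 16 of 34 higher and 1 lower (median 0.84). These were 4 and 0 in the joint fit, and 10 were higher without iPS replicate 4 or without fast MEF replicate 2. Those higher in the fit of the 8 libraries included the cytochrome c reductase subunit Cyc1 at 141 ± 20.3 and 528 ± 109 CPM (1.77 ± 0.21), the ATP synthase subunit Atp5g1 at 69.9 ± 22.3 and 265 ± 57.5 CPM (adjusted p = 0.000926) and the oxidase subunit Cox6c (1.95 ± 0.38). Cycs, cytochrome c itself, was lower in iPS (-1.22 ± 0.30). Of 15 tested threonine, serine and one-carbon enzymes of 18 listed, 8 were higher and 1 lower (median 0.77), against 3 and 0 in the joint fit. Tdh, the threonine dehydrogenase on which mouse embryonic stem cells depend, was at 14.4, 8.18, 24.2 and 9.47 CPM in fast MEF and 350.5, 487, 334 and 468 CPM in iPS (4.75 ± 0.40, adjusted p = 2.69e-05). Gldc, which splits glycine to feed one-carbon units, rose from 3.0 ± 2.11 to 89.4 ± 26.6 CPM (4.80 ± 0.59). Ahcy, which clears the product of methylation reactions, and Shmt1, a serine hydroxymethyltransferase, were higher (1.97 ± 0.27 and 1.95 ± 0.27). Phgdh, the entry to serine synthesis, was lower (-0.93 ± 0.20). Cholesterol synthesis genes split evenly, with 3 of 22 tested higher and 3 lower. That is 13.6% each way, below the 18.8% and 19.7% of all tested genes. Fdps, a synthase early in the sterol branch, was higher (1.63 ± 0.20), and the late enzymes Sc5d and Hsd17b7 were lower (-2.43 ± 0.54 and -2.08 ± 0.51).

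Members of both ribosome lists that passed the test were higher in iPS. Of 36 tested cytosolic ribosomal protein genes 24 were higher and none lower (median 0.89), and of 30 nucleolus and ribosome biogenesis genes 15 were higher and none lower (median 0.74). In the joint fit 9 of the former and 1 of the latter were higher. Rpl36, whose iPS libraries held 4255, 10770, 8585 and 11150 CPM against 1301, 596, 2231 and 1457 CPM in fast MEF (2.51 ± 0.41, adjusted p = 0.00125), was among the genes with the largest gain in CPM, with Rps2 (1.23 ± 0.14), Rpl18 (1.53 ± 0.20), Pkm2 and the chaperone gene Hsp90ab1 (0.57 ± 0.11). Rps19 and Rpl32 were higher too (1.52 ± 0.23 and 1.48 ± 0.37). Ribosomal protein genes have many near-identical pseudogenes, so reads may be split between copies. The most abundant nucleolar genes, Npm1, Fbl and Ncl, did not pass (adjusted p = 0.51, 0.205 and 0.5), whereas Rrp9 and Dkc1, both parts of small nucleolar ribonucleoproteins, and Ppan were higher (1.84 ± 0.28, 1.39 ± 0.23 and 1.82 ± 0.36). Lars2, the mitochondrial leucyl-tRNA synthetase, had the largest loss in CPM, from 51030 ± 10070 in fast MEF to 9461 ± 4404 in iPS (-2.56 ± 0.38), while Rn45s, the ribosomal RNA precursor, did not pass (adjusted p = 0.128). Without these 2 genes the test called 4562 genes. Together they took 3.05% to 8.67% of the counts in the iPS libraries and 6.83% to 10.2% in the fast MEF libraries. Whether the reads counted for Lars2 come from its messenger RNA was not tested.

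Keratins had the lowest median of the lists. Of 28 listed keratin and cornified envelope genes, 17 were tested, 14 were lower in iPS and none was higher (median -5.07), and the list summed to 21760 to 41750 CPM in fast MEF, 471.8 to 1047 in iPS, 209.5 to 1197 in slow MEF and 139.4 to 228.0 in bulk MEF. Krt14, a keratin of basal skin cells, was at 11140, 6747, 13360 and 11400 CPM in fast MEF and 1.42, 8.41, 2.09 and 1.5 CPM in iPS (-11.74 ± 0.77, adjusted p = 7.79e-06). Krt17 was at 11870, 7364, 17250 and 11130 CPM and 70.3, 157, 143 and 60.9 CPM (-6.92 ± 0.45), and Krt6a, a keratin of wounded skin, at 4153, 2235, 2854 and 3049 CPM and 0.885, 1.22, 0.58 and 0.941 CPM (-11.86 ± 0.37). No library of iPS came near a fast MEF library for these 3. Krt6b, a close copy of Krt6a, was at 451 ± 97.4 and 0.165 ± 0.191 CPM (-11.83 ± 0.72; -11.18 without iPS replicate 3). Krt16, the partner of Krt6a, was at 1565 ± 281 and 1.13 ± 1.14 CPM (-10.55 ± 0.66). Krt80 (120.4 ± 25.9 CPM) had no read in iPS, at least 1764-fold lower. Keratins of one family are alike in sequence, and reads may be assigned between copies.

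Krt8 and Krt19, keratins of simple epithelium, were lower as well, but Krt18 did not pass. Krt8 was at 2010, 1518, 2036 and 1709 CPM in fast MEF and 3.9, 16.6, 5.85 and 8.66 CPM in iPS (-7.81 ± 0.49, adjusted p = 7.3e-06) and Krt19 at 367 ± 103 and 2.84 ± 1.86 CPM (-7.10 ± 0.54). Krt18, the partner of Krt8, was low in both (14.9 ± 10.2 and 16.9 ± 14.6 CPM, adjusted p = 0.957), and it has many near-identical pseudogene copies. Of 6 keratinocyte markers, Krt14, Sfn and Dsg3 were called lower in iPS, while Krt5, Trp63 and Krt15 had too few counts to be tested in either group. Trp63, the master regulator of that lineage, had no read in 3 of the 4 fast MEF libraries. The 6 markers summed to 8619 to 16880 CPM in fast MEF and 348.8 to 835.6 CPM in iPS. Sfn, a 14-3-3 protein of keratinocytes, remained at 344, 345, 832 and 403 CPM in iPS against 3589, 1841, 3493 and 3161 CPM in fast MEF (-2.78 ± 0.34), and bulk MEF had 76.7 ± 8.56 CPM. Whether cells of another kind had a part in the keratin levels was not tested.

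Desmosomes and hemidesmosomes, the junctions that anchor keratin filaments, followed: 11 of 17 tested genes were lower and 1 higher in iPS (median -2.85), and 6 and 0 in the joint fit. Itgb4, the hemidesmosome integrin, fell from 1370, 1381, 1322 and 1638 CPM to 6.55, 12.6, 20.4 and 12.4 CPM (-6.90 ± 0.36, adjusted p = 2.61e-06). Pkp1, a plakophilin, had 512 ± 45.4 CPM in fast MEF and 3 reads in iPS, a ratio of 7368-fold (95% counting interval 2521 to 35731). Dsp, which links keratin to the junction, was at 547 ± 25.7 and 43 ± 44.3 CPM (-3.80 ± 0.59) and Dsc2, a desmocollin, at 62.7 ± 18.4 and 0.809 ± 0.28 CPM (-6.38 ± 0.44). For Dsp, iPS replicate 3 (109 CPM) was above the other 3 (18.1 to 24.5 CPM).

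Epithelial junction genes, of which 11 of 29 tested were lower and 5 higher in iPS (median -0.53), held both directions. The share higher (17.2%) was near the 18.8% of all tested genes, and the share lower was 37.9% against 19.7%. The joint fit called 2 lower and 1 higher, and the fit of the 16 MEF and iPS libraries 6 lower and 3 higher. Crb3, a polarity protein, was at 464, 279.9, 379.9 and 351 CPM in fast MEF and 1.59, 10.3, 6.9 and 67.1 CPM in iPS (-4.22 ± 0.94), and the splicing regulator Esrp2 at 74.1 ± 9.15 and 3.24 ± 1.43 CPM (-4.62 ± 0.41). Ocln, the tight junction protein occludin, was low in both and lower in iPS (5.88 ± 2.9 and 0.326 ± 0.359 CPM, adjusted p = 0.00725). Elf3, an epithelial Ets factor, was at 0.484, 0.184, 2.38 and 2.62 CPM in fast MEF and 250.2, 90.8, 219.8 and 255 CPM in iPS (7.08 ± 0.79, adjusted p = 0.000137), and Grhl2, which opens epithelial enhancers, was higher too (3.08 ± 0.48), as was P-cadherin, Cdh3 (2.16 ± 0.41). E-cadherin (Cdh1) and Epcam, classical epithelial adhesion proteins, are named here after their values were seen. Cdh1 was at 169, 220.1, 229 and 199 CPM in fast MEF and 153, 82.8, 75.3 and 71.7 CPM in iPS (-1.23 ± 0.28, adjusted p = 0.00698), and the call was lost with the bulk and slow MEF in the fit. Epcam was at 27.1 ± 8.31 and 41.2 ± 11.6 CPM and did not pass (adjusted p = 0.316), against 0.0558 ± 0.0647 CPM in bulk MEF.

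Trophoblast and placental genes split evenly over 14 tested of 24 listed, with 5 higher and 5 lower in iPS (median 1.03). Each was a share of 35.7%, against 18.8% and 19.7% of all tested genes, and the joint fit called 2 higher and 4 lower. The summed level was nevertheless lower, going from 2202 to 3086 CPM in the fast MEF libraries to 231.0 to 434.3 CPM in iPS, and Krt8, which is also on this list, makes up most of the fast MEF sum. Gata2, a zinc finger factor of trophoblast and blood, was at 396, 359, 378 and 409 CPM in fast MEF and 20.7, 10.7, 9.45 and 8.94 CPM in iPS (-5.09 ± 0.33, adjusted p = 7.49e-06), and Rtl1, an imprinted retrotransposon-derived gene, at 72.4 ± 42.4 and 0.43 ± 0.294 CPM (-7.47 ± 0.67). Higher in iPS were Hand1 and Esx1, at 10.6 ± 7.45 and 14.6 ± 10.5 CPM against 0.0496 ± 0.0992 and 0.206 ± 0.19 CPM.

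**Figure D3:**
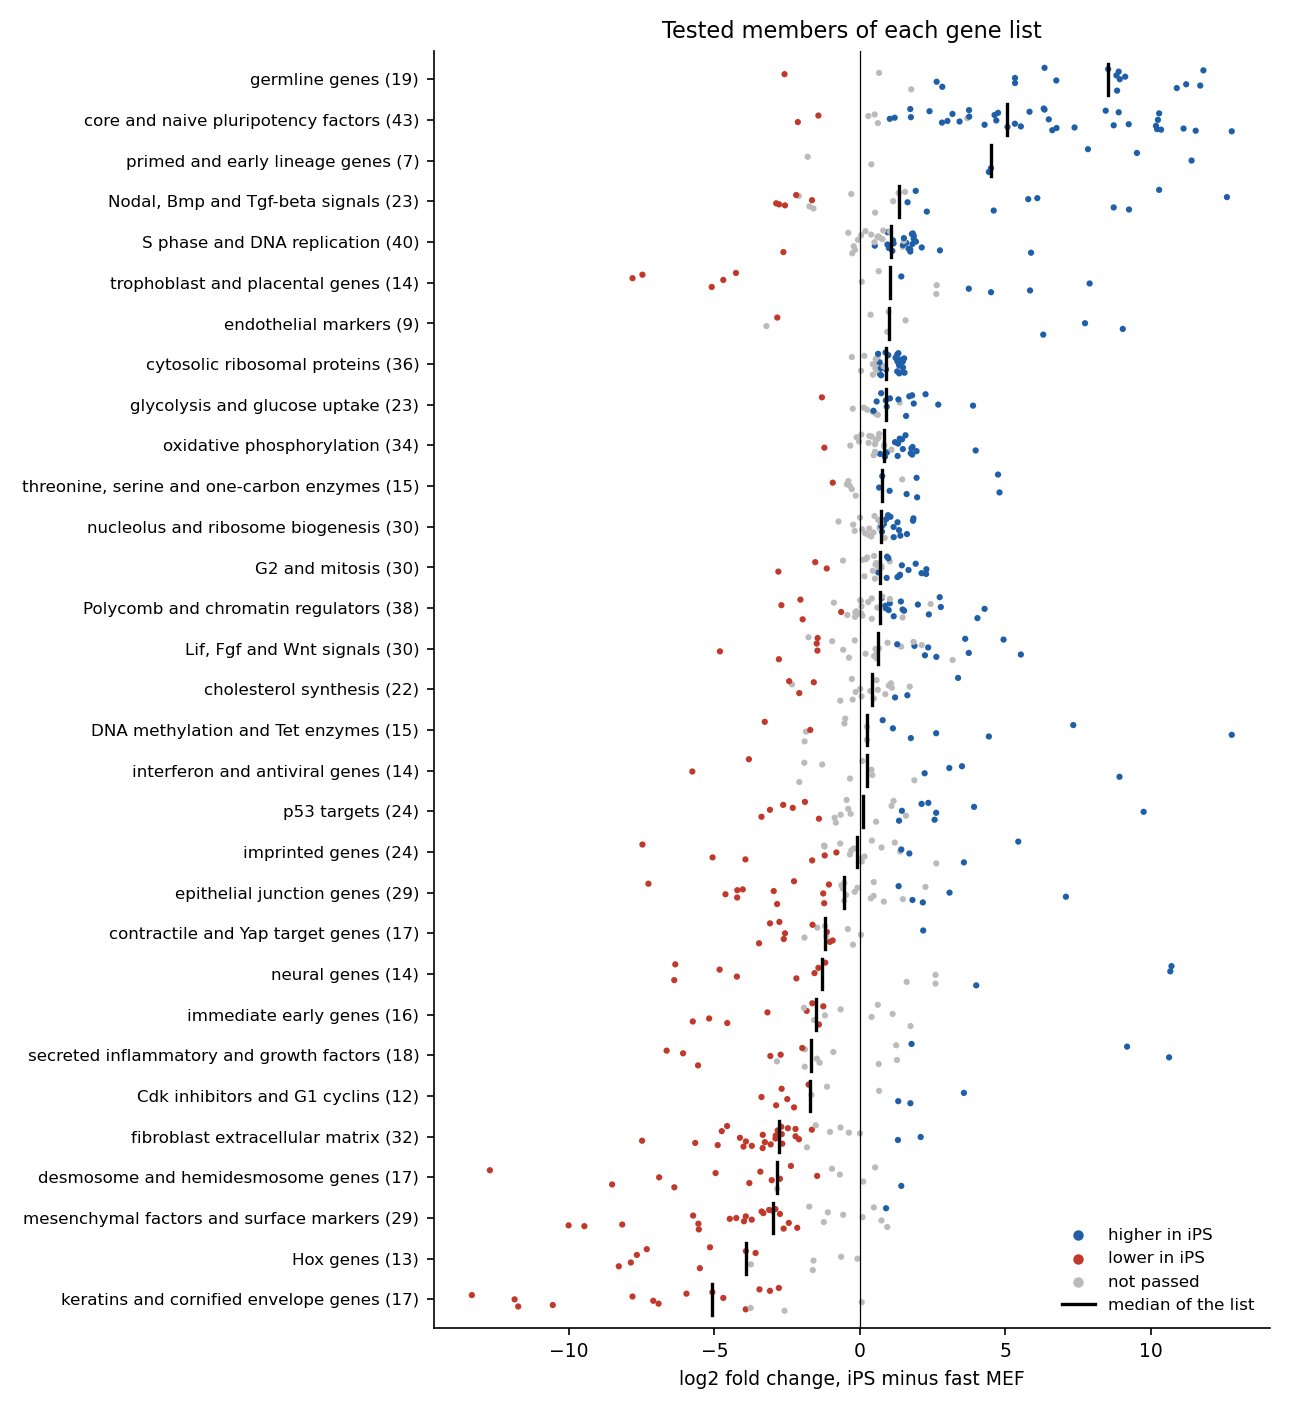
Log2 fold change, iPS minus fast MEF, of each tested member (points) of the 31 gene lists with 7 or more tested members, with the number tested in parentheses and a bar at the list's median. Lists run from the germline genes at the top (median 8.53) to keratins at the bottom (median -5.07), and fitted values of genes with no read in a group are plotted as the fit gives them.

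Fibroblast genes that fast MEF still held were mostly lower in iPS. Of 32 tested extracellular matrix genes of 33 listed, 24 were lower and 2 higher in iPS (median -2.76; 23 and 1 in the joint fit), and the list summed to 9846 to 14560 CPM in fast MEF and 2601 to 3877 CPM in iPS, against 84830 to 123800 CPM in bulk MEF. Col1a2, a chain of type I collagen, was at 629, 557, 2081 and 549.6 CPM in fast MEF and 141, 92.1, 26 and 60.8 CPM in iPS (-3.71 ± 0.63, adjusted p = 0.00145). Fast MEF replicate 3 was the highest, and without it the log2 fold change was -2.98. Col6a1 (219 ± 21.8 to 4.8 ± 2.34 CPM, -5.66 ± 0.41), the proteoglycan decorin, Dcn (65.1 ± 12.3 to 0.397 ± 0.618 CPM, -7.48 ± 0.98), and periostin, Postn (62.2 ± 14.7 to 2.57 ± 2.44 CPM, -4.75 ± 0.76), showed wider gaps. Col3a1 (-4.88 ± 0.76), Timp3 (-4.56 ± 0.49) and Fbn1 (-4.12 ± 0.58) were lower too.

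Sparc, a matrix glycoprotein, was at 6416, 4996, 5399 and 4912 CPM in fast MEF and 1986, 1717, 2091 and 1761 CPM in iPS (-1.65 ± 0.14), so it stayed abundant in iPS, with bulk MEF at 36840 ± 2504 CPM. Fibronectin ran the other way: Fn1 was at 96.5, 48.8, 136 and 60.4 CPM in fast MEF and 551, 448, 309.6 and 279 CPM in iPS (2.09 ± 0.37, adjusted p = 0.00176), against 3225 ± 1947 CPM in bulk MEF. Fbln1, a fibulin, was higher as well (1.31 ± 0.34).

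Mesenchymal factors and surface markers were lower in 20 and higher in 1 of 29 tested (median -3.00), with 15 and 0 in the joint fit. Cd44, the hyaluronan receptor whose loss is used to stage reprogramming, was at 308, 434, 359 and 385 CPM in fast MEF and 16.3, 10.4, 0.869 and 8.0 CPM in iPS (-5.53 ± 0.72, adjusted p = 0.000326). Ly6a, also called Sca-1, averaged 59.8 ± 17.1 CPM in fast MEF against 2 reads in iPS. Foxd1 averaged 38.8 ± 10.5 CPM in fast MEF and was nearly unread in bulk MEF (0.333 ± 0.666 CPM), slow MEF (0.291 ± 0.581 CPM) and iPS (0.047 ± 0.0941 CPM). Prrx1, a limb mesenchyme factor, was at 64.4 ± 12.7 and 4.48 ± 4.56 CPM (-3.98 ± 0.80), and Tbx15, another such factor, at 38.9 ± 14.4 and 0.86 ± 0.78 CPM (-5.73 ± 0.77). Nt5e, also called CD73, had 39 ± 6.85 CPM in fast MEF, 0.872 ± 0.845 CPM in iPS (-5.55 ± 0.81) and only 0.555 ± 0.252 CPM in bulk MEF. Vim, the intermediate filament of mesenchyme, was the 1 higher in iPS (164 ± 35.3 to 333 ± 40.1 CPM, 0.90 ± 0.21), both far below the 3233 ± 492 CPM of bulk MEF.

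All 7 fibroblast markers (Col1a1, Col1a2, Col3a1, Thy1, Pdgfra, Prrx1 and Twist2) were called lower in iPS, and none was at 0 in either group. They summed to 79.4 to 416 CPM in iPS, 1909 to 5403 in fast MEF and 23220 to 45030 in bulk MEF. The calls of Pdgfra and Twist2 were lost in 5 and 3 of the fits that left out a library (adjusted p 0.0533 to 0.0703 and 0.0505 to 0.0605).

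Contractile and Yap target genes had 9 of 17 tested lower and 1 higher in iPS (median -1.20), and 6 and 0 in the joint fit. The tropomyosins Tpm2 and Tpm4 fell (-3.09 ± 0.24 and -2.77 ± 0.30), as did Cyr61, a Yap target (259 ± 46.3 to 47.4 ± 30.0 CPM, -2.57 ± 0.41). Jub, the LIM protein ajuba, was the 1 higher (2.17 ± 0.25). Tagln and Acta2, the smooth muscle markers, varied widely within iPS, Acta2 from 7.01 to 292 CPM, and did not pass (adjusted p = 0.181 and 0.841). Both were far higher in bulk MEF (31700 ± 6579 and 9178 ± 1195 CPM).

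Hox genes, which mark position along the body and limbs, were still read on day 6. Of 31 listed Hox genes 13 were tested, 8 were lower in iPS and none was higher (median -3.92). Hoxc10, a gene of the hindlimb and posterior trunk, was at 187, 201, 131 and 186 CPM in fast MEF and 1.77, 0.811, 0.985 and 0.376 CPM in iPS (-7.66 ± 0.46, adjusted p = 6.57e-06), and Hoxa9 at 40.8, 46.6, 100.4 and 89 CPM and 0, 0.203, 0.811 and 0 CPM (-7.87 ± 0.91). Hoxa11 fell from 30.9 ± 3.28 to 0.106 ± 0.0919 CPM (-8.28 ± 0.68) and Hoxa10 from 31.7 ± 21.1 to 0.817 ± 0.91 CPM (-5.50 ± 0.89), while Hoxc9 had 8.86 ± 5.41 CPM in fast MEF and 2 reads in iPS. Bulk MEF held 152 ± 36 CPM of Hoxc10 and 53.9 ± 24.5 CPM of Hoxa11. Hoxb9 overlapped between the groups (adjusted p = 0.518).

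**Figure D4:**
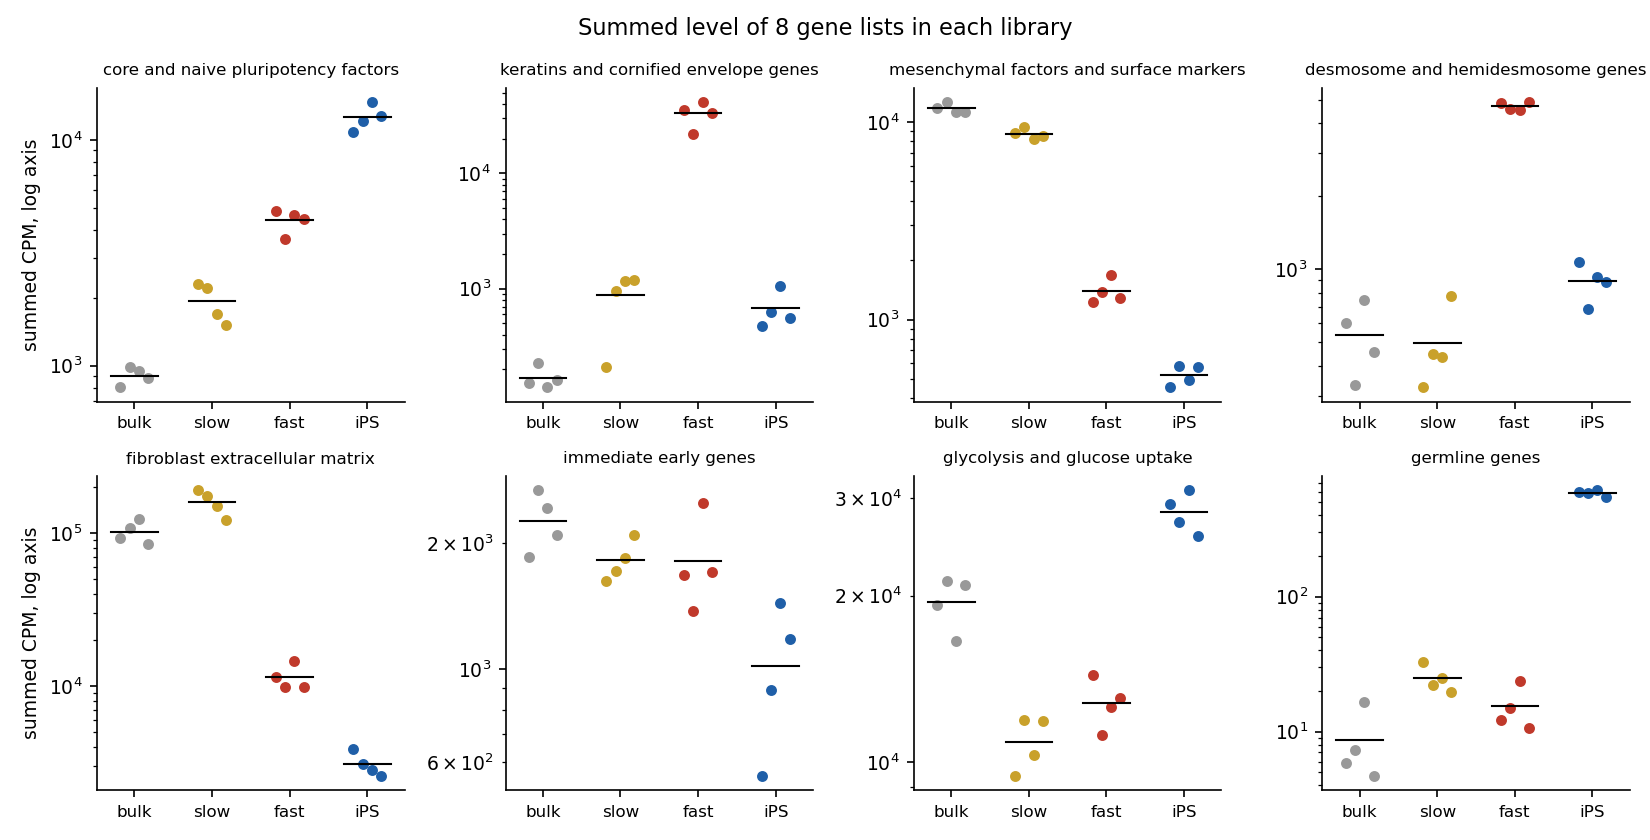
Summed CPM of 8 gene lists (log axis, 1 range per panel) in each library of bulk MEF (grey), slow MEF (yellow), fast MEF (red) and iPS (blue), with a line at the mean of the 4 libraries. Keratins sum to 21760 CPM or more in every fast MEF library and to 1197 CPM or less in all others, and extracellular matrix falls from bulk and slow MEF through fast MEF to iPS. In the panel of pluripotency factors, Stmn2 makes up most of the fast MEF sum.

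Immediate early genes, which serum and stress induce within minutes, were lower in 8 of 16 tested (4 in the joint fit) and higher in none (median -1.49). Egr1 was at 175, 242, 189.8 and 262 CPM in fast MEF and 9.21, 12.2, 10.7 and 8.19 CPM in iPS (-4.56 ± 0.27, adjusted p = 5.46e-06), Fos at 32.4, 46.8, 60.3 and 50.3 CPM and 1.77, 2.03, 0.174 and 0.0941 CPM (-5.74 ± 0.88), and Jun at 18.5 ± 5.99 and 2.19 ± 1.11 CPM (-3.18 ± 0.54). The AP-1 subunits Fosl2 (-5.18 ± 0.79) and Junb (-1.83 ± 0.48) were lower too, although the libraries of Junb overlapped, and Jund did not pass (adjusted p = 0.25). The AP-1 site TGANTCA, read on both strands, lay in 9.67% of 1045 promoters of genes lower in iPS by 4-fold or more, 5.80% of 793 promoters of genes higher by 4-fold or more and 5.89% of promoters of all tested genes. These shares are descriptions with no test.

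Secreted growth factors and inflammatory proteins had 6 of 18 tested lower and 3 higher in iPS, with 10 lower without iPS replicate 2, and 11 lower and 6 higher in the fit of the 16 MEF and iPS libraries. In the fit of the 8 libraries the shares were 33.3% lower and 16.7% higher, against 19.7% and 18.8% of all tested genes. Igfbp2, an insulin-like growth factor binding protein, had among the widest gaps of abundant genes, at 0.775, 1.1, 2.18 and 0.507 CPM in fast MEF and 1789, 1314, 1822 and 2391 CPM in iPS (10.62 ± 0.49, adjusted p = 1.52e-06). Igfbp5 ran the other way (137 ± 118 to 2.17 ± 0.884 CPM, -6.08 ± 0.70; -5.29 without fast MEF replicate 3). The collagenase gene Mmp13 and the chemokine gene Ccl7 were low in fast MEF (7.45 ± 2.96 and 7.01 ± 0.895 CPM) and lower in iPS. Igfbp4 was lower in iPS (-2.72 ± 0.73) although fast MEF replicate 3 (36.1 CPM) lay below iPS replicate 3 (49.6 CPM). Saa3, an acute phase protein, had no read in fast MEF and 7.35 ± 4.35 CPM in iPS. Of 14 tested interferon and antiviral genes, 4 were higher and 2 lower in iPS. Just 2 were higher in the joint fit and without iPS replicate 3 or fast MEF replicate 1 or 4. The fit of the 16 MEF and iPS libraries leaned the other way, with 2 higher and 5 lower of 22 tested. Higher in the fit of the 8 libraries were Ifitm1, a membrane protein known from primordial germ cells (0.16 ± 0.204 CPM in fast MEF, 101 ± 21.1 CPM in iPS, 8.92 ± 0.63), and Ifitm3 (2.22 ± 0.31). Ifitm2 did not pass (adjusted p = 0.211). The interferon regulator Irf7 (3.05 ± 2.61 CPM in fast MEF, 2 reads in iPS) and Xaf1 (-3.81 ± 0.70) were the 2 lower in the fit of the 8 libraries.

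Neural genes, 8 lower and 3 higher of 14 tested (4 and 3 in the joint fit), were mostly lower in iPS among those that passed. The shares were 57.1% lower and 21.4% higher, against 19.7% and 18.8% of all tested genes. Nefl, the light neurofilament, was at 760.2, 886, 934 and 628 CPM in fast MEF against 31.5, 37.9, 35.8 and 82 CPM in iPS (-4.22 ± 0.35, adjusted p = 2.65e-05), and at 0.337 ± 0.136 CPM in bulk MEF. Mtap2, a microtubule protein of dendrites, was at 68.2 ± 9.41 and 0.827 ± 0.752 CPM (-6.38 ± 0.64), Sox11 at 66 ± 10.9 and 2.5 ± 2.2 CPM (-4.82 ± 0.61) and Tubb3 at 2745 ± 501 and 1318 ± 384 CPM (-1.19 ± 0.23). Olig2, an oligodendrocyte and motor neuron factor, was instead at 69.6 ± 12.9 CPM in iPS against 1 read in fast MEF, and Stmn3, a stathmin, had no read in fast MEF and 21.2 ± 9.16 CPM in iPS. Syt1, the synaptic calcium sensor, was at 1.45, 1.84, 2.38 and 24.1 CPM in fast MEF, with replicate 4 far above the others, and 0.0796 ± 0.0985 CPM in iPS (-6.34 ± 1.39; -4.38 without that replicate). A set of 4 neuron markers summed to 2287 to 3378 CPM in fast MEF, 837.9 to 1666 CPM in iPS and 304.8 to 938.0 CPM in bulk MEF. Whether neuronal cells had a part in these levels was not tested.

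Imprinted genes had 4 higher (16.7%) and 6 lower (25.0%) of 24 tested, near the 18.8% and 19.7% of all tested genes, and 1 and 4 in the joint fit. Igf2, a fetal growth factor, was at 1069, 731, 926 and 1158 CPM in fast MEF and 36.1, 29.7, 26.1 and 35.2 CPM in iPS (-5.06 ± 0.23, adjusted p = 1.52e-06). H19, which shares its control region, was at 197, 143, 239.8 and 181 CPM in fast MEF and 227, 245, 215 and 135 CPM in iPS, with overlapping libraries (-0.02 ± 0.25, adjusted p = 0.961). Grb10, an imprinted growth inhibitor, was lower in iPS (121 ± 15.1 to 8.7 ± 3.69 CPM, -3.93 ± 0.41), and so was Gnas (-1.64 ± 0.20). Usp29, a paternally expressed gene, had 2 reads in fast MEF and 2.92 ± 1.72 CPM in iPS. Xist, the RNA that coats the inactive X chromosome, was at 61.4, 238, 82.1 and 128 CPM in fast MEF and 12, 13.5, 14.3 and 16.8 CPM in iPS (-3.29 ± 0.44, adjusted p = 0.000368), while Tsix, transcribed across it on the other strand, had 2 reads in fast MEF and 11.1 ± 7.33 CPM in iPS. The list of 11 sex chromosome markers held 3 tested genes, of which 1 was higher (Tsix) and 1 lower (Xist). In the fit of the 16 MEF and iPS libraries 6 were tested, with 1 higher and 3 lower. Of 12 genes of the two-cell-like state 1 was tested and none passed. The sources used here do not state that counting used strand, so reads of Xist and Tsix cannot be told apart.

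Outside the lists, the highest fold changes in iPS, among genes of at least 20 CPM with no overlap, included Smtnl1, a smoothelin-like protein of muscle (60.9, 97.2, 192 and 63.2 CPM, at least 1547-fold higher), Pla2g1b, a secreted phospholipase (172 ± 31.7 CPM against 1 read), and Chga, a granin of secretory granules, whose iPS replicate 1 (334 CPM) was above the other 3 (90.2 to 104 CPM). Triml1, Tdrd12, Dmrt1, Ina, Apom and 2410004A20Rik had no read in fast MEF and means of 32.3 to 58.5 CPM in iPS, Apom with 161 CPM in replicate 1 and 11.1 to 46.1 CPM in the others. Tdrd12 acts in the piRNA pathway and Dmrt1 in testis development. At the other end, besides Krt80, Pkp1, Krt6a, Krt6b and Krt14, were the Nogo receptor gene Rtn4r (at least 1279-fold lower), the skin peptide gene Slurp1 (at least 772-fold), the B7 family gene Vtcn1 (at least 462-fold), the retinaldehyde dehydrogenase Aldh1a1 (at least 436-fold) and the desmoglein gene Dsg1a (at least 413-fold), none of which had a read in iPS. Trim29, Cyp2j6, Spink2, Gm4980 and 4732456N10Rik completed the 15 lowest. Arf3, a small GTPase, was among the 6 largest losses in CPM (3646 ± 825 to 909 ± 306, -2.13 ± 0.26), with Lars2, Krt17, Krt14, Krt6a and Sparc.

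Markers of other cell types that a culture could hold were checked. The 8 macrophage markers summed to at most 1.97 CPM in iPS and 14.96 CPM in fast MEF, none of them was tested, and bulk MEF held 193.1 to 324.5 CPM. Of 5 endothelial markers Tek was lower in iPS (26.9 ± 5.7 to 4.17 ± 3.36 CPM, -2.84 ± 0.58) and Emcn was at 0 in both groups, with sums of 8.82 to 14.4 CPM in iPS and 27.9 to 34.6 CPM in fast MEF. On longer lists of blood and endothelial markers, the genes higher in iPS included Kit and Pecam1, which pluripotent cells are known to express. The receptor Kit was at 50.3, 55, 62.2 and 30.3 CPM in iPS and 0.388, 0, 0 and 0 CPM in fast MEF (8.61 ± 0.92), and Pecam1 at 101, 116, 133 and 113 CPM and 0, 0.919, 1.19 and 0.0845 CPM (7.74 ± 0.84). Of 6 tested blood cell markers of 25 listed, 3 were higher (Kit, Laptm5 and Cd68) and 1 was lower (Il1rl1). In the fit of the 16 MEF and iPS libraries, 2 blood cell markers were higher and 3 lower of 19 tested. Of 9 tested endothelial markers of 14 listed, 3 were higher and 1 lower, against 3 and 2 of 10 tested in the fit of the 16. Laptm5 (4.45 ± 0.78), Egfl7 (6.30 ± 1.06) and, unread in fast MEF, Esam (6.67 ± 3.38 CPM in iPS) were among those higher.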

How the data were processed

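RNA of 24 libraries from sorted mouse cells was sequenced, and 8 of them (4 iPS, 4 fast MEF) enter the comparison. The values are raw read counts by gene symbol, as deposited by the authors. TopHat2 2.0.4, HTSeq, CASAVA 1.8.2 and the mm9 genome are named in the submitters' processing notes. Which step used which tool, which annotation and whether strand was read is not given in those sources.

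The deposited counts of the 8 libraries were tested with edgeR 4.0.16 in R 4.3.3, using TMM factors, the filterByExpr low-count filter, a robust quasi-likelihood fit of the 2 groups without covariates and Benjamini-Hochberg adjustment over all 11882 tested genes. Log2 fold changes use a prior count of 2. Levels are CPM with TMM factors of the 16 MEF and iPS libraries and are not divided by gene length, so they rank genes by counts. A gene with no read in a group is given a bound from 3 counts over that group, and one with 1 to 3 reads a ratio with a 95% counting interval. PCR reads without molecular identifiers are not independent molecules, so such bounds and intervals cover counting error only. Total counts of the 8 libraries ran from 4937453 to 18648132.

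The members of the 35 gene lists and the lists themselves were chosen with earlier results of these data known. Named are 12 genes (the factors, Cdkn1a, Trp53 and others picked by symbol), the 15 highest and 15 lowest fold changes among called genes without overlap and with at least 20 CPM, the 6 largest differences in CPM each way, and of each list up to 6 called members in the main direction, 3 in the other and 3 abundant ones that did not pass. Some genes that this rule picks are not reported here. Promoters came from RefSeq (GRCm38.p6), matched by symbol and used for letters only. The model was tested on simulated counts. It recovered 2 of 64 genes changed 2-fold, 24 of 64 changed 4-fold and 51 of 61 changed 16-fold, with 2 false calls. The simulation held far fewer changed genes than were called here, so these shares may not carry over to the data. A gene that did not pass is thus not shown to be unchanged. Alternatives were DESeq2 1.42.0, limma 3.58.1, other size factors, filters, sample sets, a replicate block, thinning and leaving out each library. The GMP libraries of the series enter only the fit of all 24. Figures were drawn with matplotlib 3.10.9.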

Additional observations from a re-analysis of the deposited data

Results flagged for a closer look

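Of 448 groups of 4 libraries checked over the genes described above, 42 held a library so far from the other 3 that the gap to its nearest neighbour passed the 95% critical value of Dixon's test. That value assumes normally distributed levels, and CPM was used without a log, so no rate by chance can be set beside the 42. A group read in only 1 library, as for Kit and Dppa2 in fast MEF, passes however few its reads, once they reach the least count checked. Of the 42, fast MEF replicate 3 held 12 and iPS replicate 1 held 7, and no cause of these values was tested.

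Fast MEF replicate 1 was above its group for Kit at 0.388 CPM against 0. Fast MEF replicate 1 was below its group for Slc2a3 at 145 CPM against 175 to 180.5. Fast MEF replicate 2 was above its group for Dppa2 at 0.368 CPM against 0 and Cyr61 at 328 CPM against 230.1 to 243. Fast MEF replicate 2 was below its group for Plk3 at 4.32 CPM against 6.94 to 7.46. Fast MEF replicate 3 was above its group for Sall4 at 117 CPM against 36.4 to 45.6, Tdgf1 at 0.595 CPM against 0, Pou3f1 at 0.793 CPM against 0 to 0.0919 and Gadd45a at 26.6 CPM against 4.46 to 5.7. It was also above them for Cdk6 at 21.6 CPM against 7.65 to 9.3, Cdk4 at 276 CPM against 131 to 148, Col1a1 at 2687 CPM against 1002 to 1132 and Col1a2 at 2081 CPM against 549.6 to 629. It was also above them for Thy1 at 451 CPM against 178 to 223, Trp63 at 1.19 CPM against 0 and Egfl7 at 2.18 CPM against 0 to 0.184. Fast MEF replicate 3 was below its group for Rrm2b at 2.58 CPM against 6.53 to 6.68. Fast MEF replicate 4 was above its group for Lefty2 at 6.34 CPM against 0.194 to 0.793, Fzd1 at 64.2 CPM against 10.0 to 12.2, Dkk3 at 19.9 CPM against 8.73 to 9.84 and Syt1 at 24.1 CPM against 1.45 to 2.38.

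iPS replicate 1 was above its group for Chga at 334 CPM against 90.2 to 104, Fbn1 at 21.1 CPM against 3.58 to 6.55, Cdh1 at 153 CPM against 71.7 to 82.8 and Gata2 at 20.7 CPM against 8.94 to 10.7. It was also above them for Gnas at 214 CPM against 135 to 147 and Hoxb9 at 12.6 CPM against 1.22 to 3.04. iPS replicate 1 was below its group for Atp5g1 at 179.7 CPM against 284 to 303. iPS replicate 2 was above its group for Krt14 at 8.41 CPM against 1.42 to 2.09, Dcn at 1.32 CPM against 0 to 0.177, Pdgfra at 4.15 CPM against 0.522 to 0.941 and Krt16 at 2.84 CPM against 0.47 to 0.708. It was also above them for Ldhb at 297 CPM against 185 to 191. iPS replicate 3 was above its group for Sfn at 832 CPM against 344 to 403, Krt5 at 0.811 CPM against 0, Dsp at 109 CPM against 18.1 to 24.5 and Bmp7 at 19.07 CPM against 2.82 to 4.66. It was also above them for Igfbp4 at 49.6 CPM against 7.43 to 13.5. iPS replicate 4 was above its group for Crb3 at 67.1 CPM against 1.59 to 10.3, Dsc2 at 1.22 CPM against 0.608 to 0.708 and Junb at 248 CPM against 71.9 to 92.3. It was also above them for Nefl at 82 CPM against 31.5 to 37.9.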

How the results depend on the processing

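The count of 4568 called genes and its split fell when all 24 libraries shared 1 estimate of the spread, to 1675 calls, 681 higher and 994 lower in iPS. Of these, 1494 were called in the fit of the 8 libraries too, and 40.7% were higher in iPS against 48.8%. That fit adds 4 groups and 16 libraries: bulk MEF, slow MEF and the 3 slow and 5 fast cycling libraries of GMP, another cell type. The GMP libraries had 2098846 to 4411526 counts, of which 19.9% to 48.9% were Rn45s and Lars2. Without GMP, the fit of the 16 MEF and iPS libraries called 4612 genes, so the fall came with the GMP libraries. Its cause was not tested. Of 225 called genes described here 159 kept their call in the fit of all 24 libraries, and 219 kept it in the fit of the 16. Counts under the other alternatives stayed within 1.5 times: 4593 with DESeq2 size factors, 4562 with upper-quartile factors, 4364 without the low-count filter, 4009 with at least 5 CPM in at least 4 libraries, 4242 with counts thinned to the smallest library, 4562 without Rn45s and Lars2, 5841 with DESeq2 and 5669 with limma voom. Leaving out 1 library in turn gave 3960 (without fast MEF replicate 2) to 4903 (without fast MEF replicate 3) calls. No called gene described here changed direction under any of these alternatives; genes that did not pass could, and H19 ran from -0.115 to 0.139 on the log2 scale. Of 70 counts over gene lists, 41 moved by more than 1.5 times with all 24 libraries in the fit, 13 in the fit of 16 libraries and at most 9 under any other alternative. The fold changed by more than 1.5 times without 1 library in many of them. It grew most often without iPS replicate 2 (17 genes) or fast MEF replicate 3 (14 genes), and those where it shrank are given with that value, as levels or as bounds.

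With the replicate number of the labels as a block, 4154 genes were called, 2047 higher and 2107 lower, and Lin28b and Tdrd1 lost their call. Same-numbered iPS and fast MEF libraries correlated at -0.024 to 0.039 in their deviations from the group means and other pairs at -0.052 to 0.079, so no pairing by number showed over all tested genes. A pairing that affects only some genes was not tested. Depth limits the genes that were listed at few reads: a gene with no read in a group is given as a bound from 3 counts over the group, which covers counting error only.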
